A study of Ovis aries with 16 samples.

Results

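The miR-374 miRNAs of the sheep testis were oar-miR-374a and oar-miR-374b, the only 2 of the 271 listed miRNAs, and of 5267 listed small RNAs in all, with names that begin with oar-miR-374. Small RNA was sequenced from the right testis of 16 Merino rams, with 1 library per animal. The rams were 24 months old at entry, and both groups were kept in individual pens after the same acclimatization ration. For 65 days, 8 well-fed rams were given a diet set for a 10% gain in body mass and 8 underfed rams a diet set for a change of -10%. The comparison asked whether the level of feeding altered small RNAs in the sexually mature testis. The family was selected on its CPM difference between diets, which was already known, so that difference is given as a description without a p-value.

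A miRNA is a short RNA that guides a silencing complex to messenger RNAs, mostly by pairing of its seed, the stretch near its 5′ end, with sites in the message. In mammals miR-374a and miR-374b have the same seed, so predicted target sites are largely shared between them, and they differ in the rest of the mature sequence and at the genes that encode them. Both genes lie on the X chromosome within FTX, a long noncoding RNA gene of the X-inactivation centre, where miR-374b is paired with miR-421 and miR-374a with miR-545. Both members were matched by name to RefSeq sheep genes, MIR374A and MIR374B, on the assembly ARS-UI_Ramb_v3.0. The 2 genes were direct neighbours with no annotated gene between them, and the protein-coding gene ZCCHC13 was next beyond MIR374A. That assembly differs from the build to which the reads were mapped, so no coordinates are given. Mature sequences were not analysed here. Neither miR-421 nor miR-545 was among the 271 listed miRNAs under the names oar-miR-421 and oar-miR-545.

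Levels were CPM, reads per 1000000 miRNA reads in the library. Library depth, recovered from the step between low values, was 17163 to 503916 miRNA reads in well-fed males (median 294247) and 27797 to 1058985 in underfed males (median 532446). Fewer than 100000 miRNA reads were present in 3 libraries, namely well-fed 5, underfed 6 and underfed 8. Underfed male 1 stood apart from the other underfed males: its ratio of miRNA to piRNA reads was 0.517, within the well-fed range of 0.355 to 0.908, whereas the underfed median was 1.59. Results are given with and without these libraries where they alter the value. The tissue label was checked with homologues of miR-34b, miR-34c and miR-449a, miRNAs of meiotic and postmeiotic germ cells, which were present in all 16 libraries at a summed level of at least 10978 CPM.

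For oar-miR-374a, the level in well-fed males was lowest at 46.99 CPM, had a median of 59.5 CPM and was highest at 109.1 CPM. In underfed males the lowest level was 53.6 CPM, the median 120.8 CPM and the highest 145.4 CPM. The groups overlapped: 5 of 8 underfed males lay above every well-fed male, and 7 of 8 lay above the well-fed median. Well-fed males averaged 64.2 ± 19.7 CPM (SD, n = 8). The underfed average was 113.3 ± 33.3 CPM (SD, n = 8), which was 1.76 times the well-fed value. The underfed male was the higher in 57 of the 64 possible pairs of males from the 2 diets.

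The highest well-fed male was number 7 and the lowest underfed male was number 1. Well-fed 7 carried 55 reads of oar-miR-374a, the largest number in a well-fed library. Underfed 1 carried 8 reads and lay below the well-fed median. Without underfed 1, the underfed mean was 121.8 ± 24.8 CPM (SD, n = 7), and the ratio to well-fed males was 1.90.

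For oar-miR-374b, the level in well-fed males was lowest at 62.5 CPM, had a median of 107.7 CPM and was highest at 174.8 CPM. In underfed males the lowest level was 20.1 CPM, the median 146.8 CPM and the highest 259.5 CPM. The overlap over all 16 libraries was wider than for oar-miR-374a, because 2 of 8 underfed males lay above every well-fed male and 1 lay below every well-fed male. The highest well-fed value, in well-fed 5, came from 3 reads (95% Poisson interval 36.0 to 511 CPM). In the 13 libraries above 100000 miRNA reads, 3 of 6 underfed males lay above every well-fed male for each member. Well-fed males averaged 113.5 ± 36.2 CPM (SD, n = 8). The underfed average was 145.6 ± 71.2 CPM (SD, n = 8), which was 1.28 times the well-fed value. The underfed male was the higher in 45 of 64 pairs. The male below all others was underfed 1, with 3 reads, and without it the underfed mean was 163.5 ± 54.0 CPM (SD, n = 7) and the ratio 1.44.

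**Figure D1:**
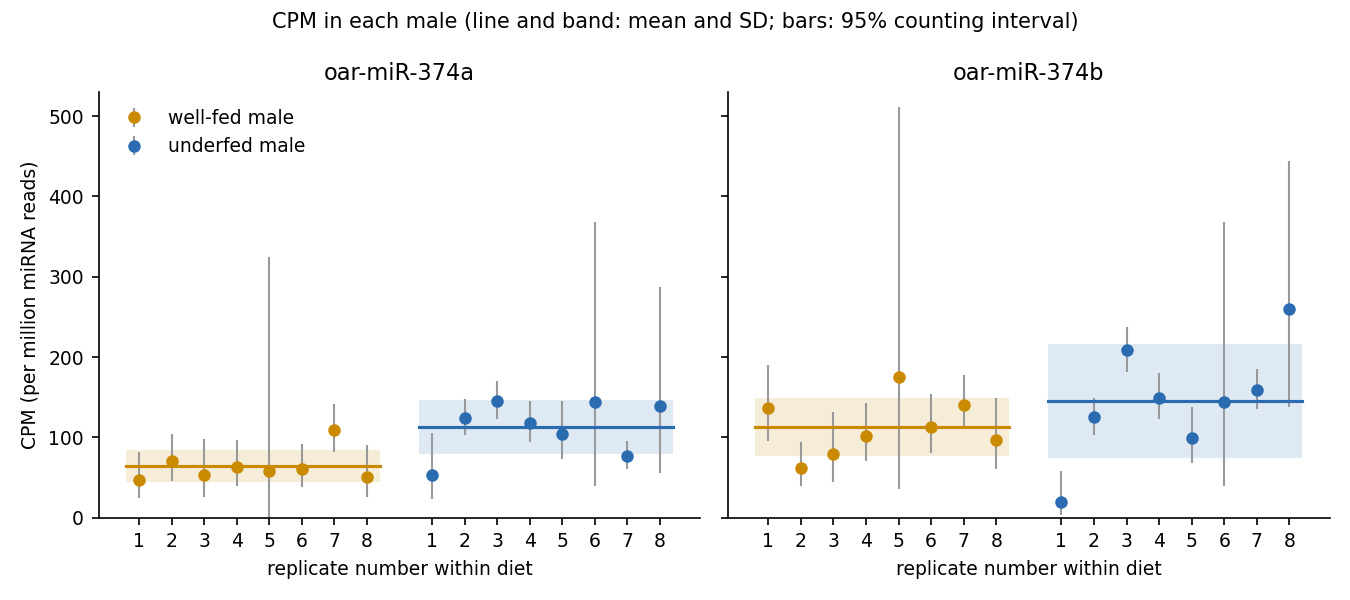
Level of oar-miR-374a and oar-miR-374b (vertical axis, CPM of miRNA reads) in each of the 8 well-fed and 8 underfed males (points), with 95% Poisson intervals as vertical bars and the group mean and SD as a line and band. Underfed males had a mean of 113.3 CPM for oar-miR-374a against 64.2 CPM in well-fed males, while the spread of oar-miR-374b in underfed males, from 20.1 to 259.5 CPM, enclosed that of well-fed males.

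Both miRNAs were of middle rank. Ordered from the most abundant of the 271 listed miRNAs in each library, oar-miR-374a ranked from 126 to 160.5 in well-fed males and from 100 to 141.5 in underfed males. oar-miR-374b ranked from 115.5 to 141 and from 100 to 192.5. At these levels the number of reads limited single values: over 8 libraries each, oar-miR-374a had 157 reads with the well-fed diet and 491 with the underfed diet, and oar-miR-374b had 242 and 665. In the 3 shallow libraries there were 1 to 7 reads of oar-miR-374a and 3 to 13 reads of oar-miR-374b. For well-fed 5, the single oar-miR-374a read gave a 95% Poisson interval of 1.48 to 325 CPM. For underfed 8, whose oar-miR-374b level was the highest of all males, the interval was 138 to 444 CPM from 13 reads. Such intervals cover counting error only, since amplified reads are not independent molecules. With the 13 deeper libraries alone, the ratio of underfed to well-fed means was 1.60 for oar-miR-374a and 1.21 for oar-miR-374b.

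The family total, the sum of both miRNAs, was 177.7 ± 43.6 CPM (SD, n = 8) in well-fed males, where it ran from 133.2 to 250.04 CPM. In underfed males it was 258.8 ± 98.3 CPM (SD, n = 8) and ran from 73.8 to 399.2 CPM, a ratio of 1.46. Both the lowest and the highest total were therefore found in underfed males, from 11 reads in underfed 1 and 20 reads in underfed 8. Without underfed 1, the underfed total was 285.3 ± 68.9 CPM (SD, n = 7), and the ratio was 1.61.

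The proportions of the 2 members were then compared within each male as a ratio, which does not depend on library size. oar-miR-374b had more reads than oar-miR-374a in 12 of 16 males, fewer in 3 and as many in 1. These are ratios of reads, and whether both sequences were recovered equally well from the RNA was not tested. The mean log2 ratio of oar-miR-374b to oar-miR-374a was 0.48 ± 0.72 (SD, n = 16), a geometric mean ratio of 1.40, and differed from 0 (p = 0.0194, two-sided exact sign-flip permutation test). With the 13 deeper libraries the mean log2 ratio was 0.40 and the test did not pass (p = 0.0679, two-sided exact sign-flip permutation test). Well-fed males alone had a log2 ratio of 0.79 ± 0.58 (SD, n = 8). The 8 underfed males had 0.17 ± 0.75 (SD), which became 0.39 ± 0.45 (SD, n = 7) without number 1. The pooled ratio is thus an average over diets with different means, and only its difference from 0 was tested. The difference in ratio between diets was not tested, because it follows from the differences for which the family was chosen.

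Expressed as a share of family reads, oar-miR-374a made up 36.9% ± 9.28 (SD, n = 8) when males were well-fed and 47.1% ± 12.5 (SD, n = 8) when they were underfed. Its share ran from 25% to 53.2% in well-fed males and from 32.6% to 72.7% in underfed males, so the groups overlapped. Pooled over 16 libraries, 648 of 1555 family reads were oar-miR-374a, or 41.7%. The exact (Clopper-Pearson) 95% interval of a single library lay wholly below 50% in 4 males, included 50% in 12 and lay wholly above it in 0. The narrowest bounds came from deep libraries: underfed 7 had 32.6% (26.8 to 38.9%) and underfed 3 had 41.1% (36.0 to 46.2%). The highest share, 72.7%, came from underfed 1.

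**Figure D2:**
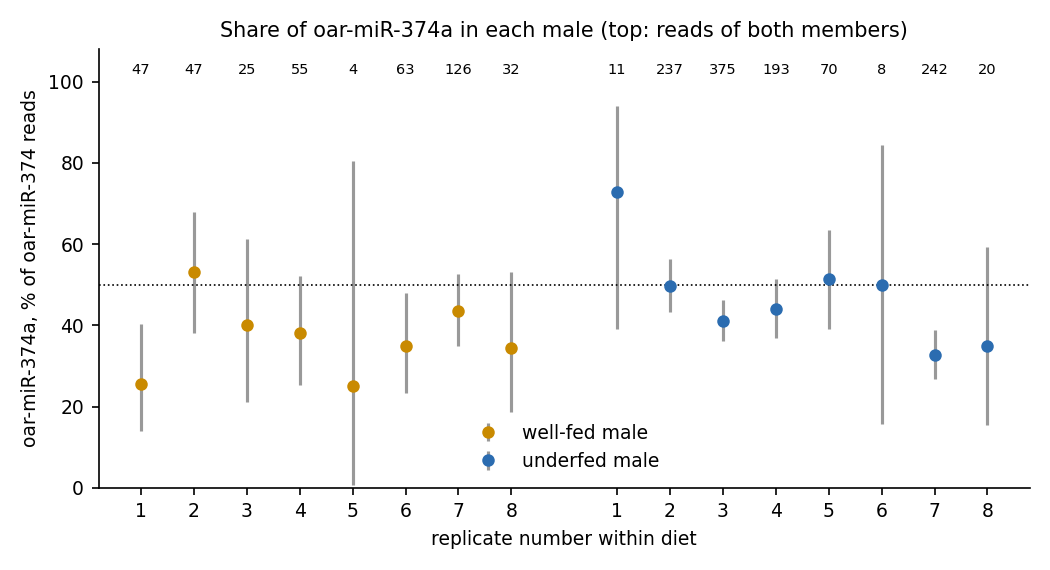
Share of oar-miR-374a among all miR-374 reads (vertical axis, percent) in each male, with exact 95% intervals as vertical lines a dotted line at 50% and the reads of both members along the top. Intervals included 50% in 12 of 16 males and lay wholly below it in 4, and the widest belonged to libraries with few family reads.

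The diet difference was next set against that of the other miRNAs. Levels were scaled between libraries by the trimmed mean of M values (TMM), which assumes that most miRNAs do not differ, and taken as log2(CPM + 1). This scaling raised or lowered the groups unequally: TMM factors were 1.08 to 1.39 in well-fed males and 0.698 to 1.26 in underfed males, and underfed 1 had the highest factor of its group. On that scale, the level of oar-miR-374a was 5.75 ± 0.47 (SD, n = 8) for the well-fed diet and 7.01 ± 0.69 (SD, n = 8) for the underfed diet, a log2 difference of 1.26 (SE 0.36). oar-miR-374b was 6.54 ± 0.49 (SD, n = 8) and 7.17 ± 1.30 (SD, n = 8), a log2 difference of 0.64 (SE 0.46). The family total differed by 0.92 on the log2 scale (SE 0.35). The added 1 CPM makes this scale understate the change of low miRNAs.

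Among the 244 miRNAs that passed the filter on low values, to which both members belonged, the median log2 difference was -0.076. The log2 difference of oar-miR-374a was number 3 from the highest of the 244 and that of oar-miR-374b was number 41. Differential expression (DE) was called at a false discovery rate (FDR) below 0.05 in limma with a ratio of mean CPM above 1.5 or below 0.67. The ratio was taken without TMM, whereas the FDR came from TMM-scaled levels. By this rule 1 of the 2 members, oar-miR-374a, was called as higher in underfed males, beside 3.28% of all tested miRNAs called in either direction and 0.82% called as higher. By FDR alone, oar-miR-374a was again the member called, beside 3.69% of all miRNAs called as higher, and the ratio above 1.5 was met by oar-miR-374a and by 3.28% of all miRNAs. The call of oar-miR-374a was lost in 12 of the 16 fits that left out 1 male, and was kept only without well-fed 7, underfed 1, underfed 6 or underfed 8. It was also lost without TMM, whereas joint scaling with piRNAs called both members. With the ratio taken from TMM-scaled CPM, oar-miR-374a was 1 of 9 miRNAs called as higher among the 244, against 2 by the rule above. The number called as lower was 6 either way. Nothing is read from the shares above, since the same comparison chose the family. The number of miRNAs called depended on single animals, from 0 without well-fed 2 or well-fed 8 to 22 without underfed 1. At an unadjusted p below 0.05 there were 63 miRNAs with all males, 57 without well-fed 2 and 50 without well-fed 8.

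**Figure D3:**
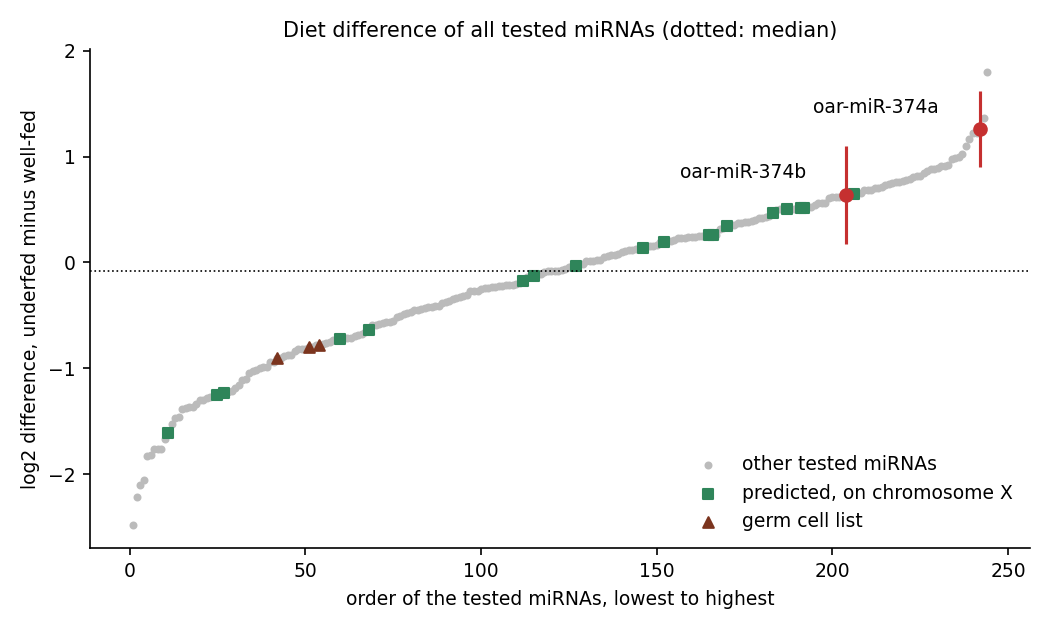
Log2 difference, underfed minus well-fed, of the 244 tested miRNAs (vertical axis, TMM-scaled log2 units) in order from lowest to highest (horizontal axis). Red points with SE bars mark oar-miR-374a, at 1.26, and oar-miR-374b, at 0.64. Squares mark 18 clustered predicted miRNAs on chromosome X, triangles the 3 germ cell miRNAs, and the dotted line the median at -0.076.

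The size of the difference of oar-miR-374b changed most with 1 animal, underfed 1, which lowered it. Without any other single male, the log2 difference was 0.43 to 0.73. Without underfed 1 the log2 difference of oar-miR-374b was 1.08 (SE 0.29), number 12 from the highest of 239 tested miRNAs. That of oar-miR-374a was then 1.48 (SE 0.31) and again number 3. Without underfed 1 and the 3 shallow libraries, the differences were 1.42 (SE 0.27) and 1.11 (SE 0.26). The scaling mattered as well. CPM without TMM gave log2 differences of 0.79 (SE 0.33) for oar-miR-374a and 0.16 (SE 0.42) for oar-miR-374b, with the median of all tested miRNAs at -0.51. Scaling to miRNA and piRNA reads together gave 2.16 (SE 0.48) and 1.58 (SE 0.57), with the median at 0.81. Relative to the median miRNA, the difference was 1.11 to 1.52 for oar-miR-374a and 0.51 to 1.12 for oar-miR-374b over all 27 alternatives, and it was positive in each. The split of calls over all miRNAs changed with the scaling, from 2 higher and 6 lower to 0 higher and 36 lower without TMM and 60 higher and 0 lower with joint scaling.

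Per 1000000 miRNA and piRNA reads combined, oar-miR-374a was at 24.3 ± 12.0 (SD, n = 8) with the well-fed diet and at 73.0 ± 29.1 (SD, n = 8) with the underfed diet, a ratio of 3.0. On the same scale oar-miR-374b was 42.2 ± 17.95 (SD, n = 8) and 95.5 ± 49.4 (SD, n = 8), a ratio of 2.26. The ratio between diets was therefore larger for both members than in CPM of miRNA reads, in libraries that also held more miRNA reads per piRNA read in underfed males.

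**Figure D4:**
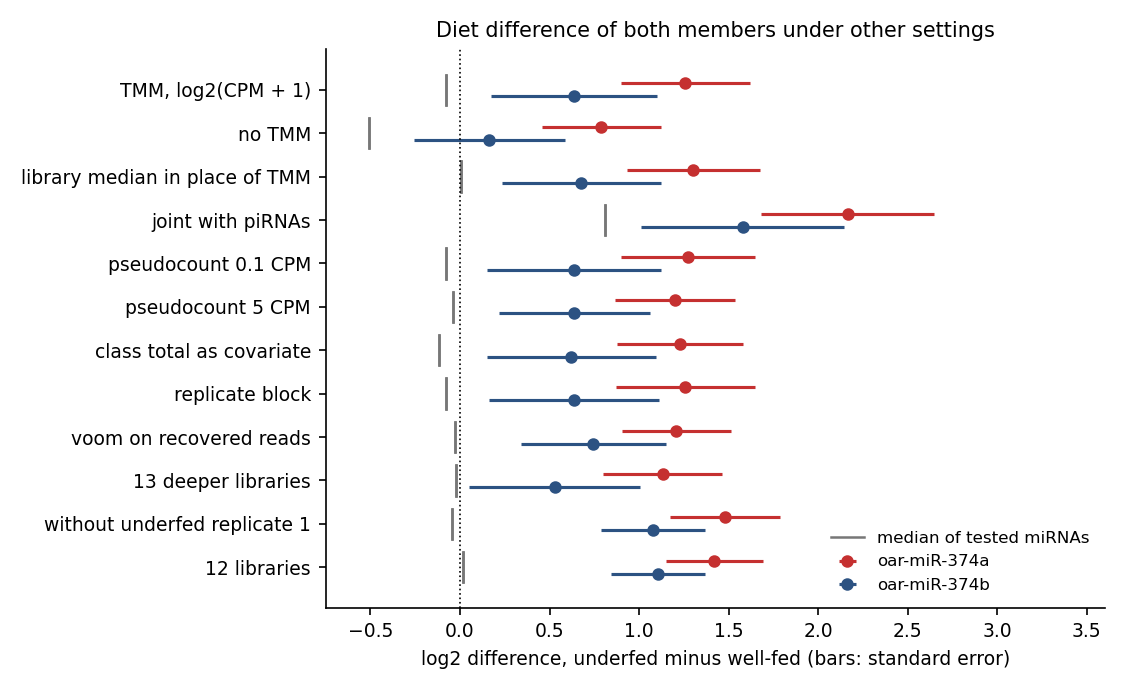
Log2 difference, underfed minus well-fed, of oar-miR-374a and oar-miR-374b (horizontal axis) under each way of scaling and choice of libraries (vertical axis), with the SE as bars and the median of all tested miRNAs as a grey tick. It was above 0 in each setting shown, from 0.79 to 2.16 for oar-miR-374a and from 0.16 to 1.58 for oar-miR-374b.

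Over males of a diet, oar-miR-374a and oar-miR-374b were compared on the TMM-scaled log2 scale. In well-fed males Pearson's r was 0.284 (p = 0.505, exact permutation test, n = 8) and Spearman's rho was 0.0238 (p = 0.977, exact permutation test, n = 8). Without the 2 well-fed males farthest from the median of oar-miR-374a, r was 0.0905. In underfed males r was 0.902 (p = 0.0406, FDR 0.162 over 4 tests, exact permutation test, n = 8) and rho was 0.452 (p = 0.267, exact permutation test, n = 8). Without underfed 1 and underfed 6, r was 0.296 (p = 0.603, exact permutation test, n = 6). This removal narrows the range of oar-miR-374a, which can by itself lower r, so it does not show what the relation rested on. Underfed 1 lay apart, at 5.45 for oar-miR-374a and 4.08 for oar-miR-374b. The other underfed males were at 6.79 to 7.54 and at 6.86 to 8.05. The relation without underfed 1 alone was not tested. In the deeper libraries, which leave out underfed 6 and underfed 8 but keep underfed 1, r was 0.928 (p = 0.0528, exact permutation test). The relation in underfed males did not pass the correction.

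The miRNAs whose pattern over males was most like that of each member were taken from the 13 deeper libraries after removal of the diet means. For oar-miR-374a these were predicted miRNA 117, a homologue of miR-135, with a Spearman's rho of 0.808, predicted miRNA 87, a homologue of miR-101, with 0.802, and oar-miR-376e-3p with 0.791. For oar-miR-374b they were predicted miRNA 117 and predicted miRNA 97, a homologue of miR-18a, with 0.879 each, and oar-miR-376c-3p with 0.863. The median rho over the other 243 miRNAs was 0.0769 for oar-miR-374a and 0.126 for oar-miR-374b, and the lowest was -0.764 and -0.901. Mean levels in well-fed and underfed males were 11.1 and 5.34 CPM for oar-miR-376e-3p, and 29.4 and 19.1 CPM for oar-miR-376c-3p. Their values therefore rest on few reads. The members were not each other's nearest: oar-miR-374b was number 38 in likeness to oar-miR-374a, with a rho of 0.593. Over 16 libraries the rho of the miRNAs named for oar-miR-374a was 0.466 to 0.553, and of those named for oar-miR-374b 0.336 to 0.697. All values of rho share library depth and scaling and are given as descriptions.

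Other miRNAs of the X chromosome were taken from the study's list of miRNAs in genomic clusters, as the predicted miRNAs placed there and nowhere else. Any X-linked miRNAs outside those clusters were not included in this list. Of 18 tested, 10 had a higher and 8 a lower log2 level in underfed males, with a median log2 difference of 0.16 beside -0.076 for all tested miRNAs. By limma, 0 of the 18 were called, with 2 higher and 2 lower at an unadjusted p below 0.05, and voom on recovered reads called 2 higher and 1 lower by FDR alone. The highest difference, 0.65, belonged to predicted miRNA 47, a homologue of miR-224, and was the only one of these 18 above that of oar-miR-374b. The lowest, -1.61, belonged to predicted miRNA 17. None of the 18 had a log2 difference above the 1.26 of oar-miR-374a, while that of predicted miRNA 17 was larger in size and opposite in direction, and these differences were not tested against each other.

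Among the marker lists for cells of the testis, only that of meiotic and postmeiotic germ cells held miRNAs called by limma. In whole tissue, fewer cells of a type and less RNA per cell cannot be told apart. The 3 homologues of germ cell miRNAs were lower in underfed males in 3 of 3 cases, with a median log2 difference of -0.80, and 2 of them were called as lower by limma, those of miR-34c, with a log2 difference of -0.90, and miR-449a, with -0.78. Their summed level was 47497 to 71079 CPM in well-fed males. In underfed males it was 10978 to 58155 CPM, with 44629 CPM in underfed 1 and 58155 CPM in underfed 8. Of these 2 males with the most germ cell miRNA in the group, underfed 1 had the lowest underfed level of both miR-374 members, from 8 and 3 reads. By contrast, underfed 8 had the highest oar-miR-374b, 259.5 CPM, and the highest family total, 399.2 CPM, of all males. As a shallow library it held 13 and 20 such reads, with 95% Poisson intervals of 138 to 444 CPM and 244 to 617 CPM. After TMM scaling, underfed 3 was the highest male for oar-miR-374b, at 264.3 CPM against 258.4 CPM in underfed 8. Underfed 3 was then also the highest for the family total. The place of underfed 8 as the highest male is therefore uncertain.

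Of the miRNAs of other cell types, limma called 0 in each list. Log2 differences are TMM-scaled, whereas summed levels are CPM without TMM, and the direction can differ between them. The 2 smooth muscle and peritubular miRNAs, oar-miR-143 and the homologue of miR-145, had log2 differences of 0.52 and 0.62, both passed an unadjusted p below 0.05, and voom called both as higher by FDR alone. Without TMM, the ratio of underfed to well-fed mean CPM was 1.03 for oar-miR-143 and 1.21 for the homologue of miR-145. Their summed level was 153985 to 210989 CPM for the well-fed diet and 138660 to 215633 CPM for the underfed diet. The 3 miRNAs of spermatogonia had log2 differences from -0.34, for the homologue of miR-222, to 0.12, for oar-miR-221. For oar-miR-221 the ratio of mean CPM without TMM was 0.80, so its direction depended on the scaling. Summed levels of the 3 were 5647 to 12611 CPM for the well-fed diet and 3151 to 8857 CPM for the underfed diet. The 4 listed of 7 blood miRNAs ran from -0.20, for the homologue of miR-486 of red cells, to 0.26, for that of miR-142 of white cells, with sums of 3617 to 10045 CPM and 2894 to 9649 CPM. Voom called 0 in both lists, and 0 passed an unadjusted p below 0.05. All 4 listed of 5 epithelial miRNAs had a higher log2 level in underfed males, from 0.66 for the homologue of miR-429 to 1.17 for oar-miR-200b, but 0 passed an unadjusted p below 0.05 or were called by voom. Their summed level was 25.8 to 174.8 CPM for the well-fed diet and 23.3 to 179.9 CPM for the underfed diet, and 3 of the 4 were at 0 in some libraries. The part of the cell types in the miR-374 difference was not tested.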

How the data were processed

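Small RNA libraries of 16 testes (8 per diet) were sequenced, and base calling used CASAVA 1.8 per the submitters' processing notes. The authors mapped reads of 18 to 25 nt for miRNAs and 26 to 32 nt for piRNAs to OAR 3.1 with miRBase 20, and deposited 1 table per animal with a signal per small RNA, a CPM within its class, so that each column summed to about 2 times 1000000. The step between low values gave the reads (93.5% to 98.5% of low miRNA values within 0.05 of a whole read). Totals, ratios and shares came from these.

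CPM was scaled by TMM (trims of 30% and 5%), filtered at 5 CPM in 8 libraries, and tested as log2(CPM + 1) with limma-trend (limma 3.58.1, R 4.3.3) over all miRNAs with Benjamini-Hochberg adjustment. DE needed FDR below 0.05 and a ratio above 1.5 or below 0.67 of mean CPM. The mean log2 ratio of both members and the correlations used exact permutation tests (numpy 2.4.6, ranks from scipy 1.17.1). Intervals of single libraries were Poisson or Clopper-Pearson (scipy 1.17.1). The TMM scaling and the limma fit were tried on simulated data. Named miRNAs were both members, and for each the 3 others with the highest Spearman's rho, and the lowest and highest log2 difference of each list; miRNAs that share a seed were not determined without sequences. The members and lists were chosen with earlier results of these data known. Alternatives varied scaling, pseudocount (0.1 and 5), filter, libraries, replicate block and voom on recovered reads. Homologues were named as the authors gave them. Columns of other samples numbered 0.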

Additional observations from a re-analysis of the deposited data

Results flagged for a closer look

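Each group of 8 males was examined for a highest or lowest male that lay apart by more than 0.526 of the whole range of the group (Dixon's 95% critical value). Of 16 such groups, 6 had one, and chance gives about 1 in 20. In well-fed males, number 7 was the highest for oar-miR-374a at 109.1 CPM, with a gap of 0.614 of the range.

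The other 5 values belonged to underfed 1. On the TMM-scaled log2 scale it was the lowest underfed male for oar-miR-374a at 5.45, for oar-miR-374b at 4.08 and for the family total at 5.90. Its log2 ratio of oar-miR-374b to oar-miR-374a was the lowest at -1.37, and its share of oar-miR-374a was the highest at 72.7%. These 5 values share the same 8 and 3 reads and are not independent of each other. The cause was not tested.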

How the results depend on the processing

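The log2 differences of oar-miR-374a, oar-miR-374b and the family total were positive under all 27 alternatives, and ranged from 0.79 to 2.16, from 0.16 to 1.58 and from 0.44 to 1.86. The highest values, 2.16 for oar-miR-374a and 1.86 for the family total, came from joint scaling with piRNAs, which alone moved a difference by more than the spread between males. Without each male in turn the differences were 1.10 to 1.48, 0.43 to 1.08 and 0.74 to 1.24. The number of DE miRNAs was 8, and became 36 without TMM, 60 with joint scaling, 25 in the 13 deeper libraries, 18 with the class total as a covariate, 26 with voom, 15 by FDR alone, 15 with the ratio taken from TMM-scaled CPM, and 51 in 12 libraries. It was 0 to 22 without each male in turn. The ratio from TMM-scaled CPM, the 12 libraries, centring on the library median (9 DE) and the removal of the 2 farthest males were chosen after seeing the data. The same numbers in both diets did not pair the males: the mean correlation of deviations was 0.0472 for equal and 0.00582 for unequal numbers. With the replicate block 7 miRNAs were DE, and oar-miR-374a, with a log2 difference of 1.26 (SE 0.39), was no longer among them. It was also not DE without TMM and in 12 of the 16 fits without 1 male.

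The log2 ratio of oar-miR-374b to oar-miR-374a was 0.40 in the 13 deeper libraries, where it no longer passed, and 0.41 to 0.60 without each male in turn. The correlation of both members in underfed males was 0.928 in the deeper libraries and 0.296 without the 2 farthest males, and passed in neither. Depth limits single values most, since 3 libraries held 1 to 13 reads of a member.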

Other observations

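The level of each member was also set against the ratio of miRNA to piRNA reads of the same library, a relation chosen after seeing the data, with 8 tests in the family. On log2 CPM without TMM, oar-miR-374a had an r of 0.782 in well-fed males (p = 0.0365, FDR 0.129, exact permutation test, n = 8; rho 0.69) and 0.764 in underfed males (p = 0.0367, FDR 0.129, exact permutation test, n = 8; rho 0.548). For oar-miR-374b, r was 0.296 in well-fed males (p = 0.488, exact permutation test, n = 8) and 0.802 in underfed males (p = 0.0484, FDR 0.129, exact permutation test, n = 8). None passed the correction. Without the 2 males farthest from the median of the read ratio, r for oar-miR-374a was 0.386 with the well-fed diet and 0.0767 with the underfed diet. For oar-miR-374b in underfed males it was -0.141. This removal narrows the range of the read ratio, which can by itself lower r. It therefore does not show whether the relations rested on those animals.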
